A study of Mus musculus with 21 samples.

Results

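Vomeronasal receptor genes were described in lists of single-nucleotide variants (SNVs) from mouse embryonic stem cells (ESCs) and from tumours. A call belonged to them when its region was not intergenic and a gene named for it began with Vmn1r or Vmn2r. Of 91523 calls in 18 lists, 853 qualified, at 184 distinct sites of 19181. The ESC lists held 117 of these sites (529 calls) and the tumour lists 73 (324 calls), with 6 sites in both sets. An SNV site is a chromosome, position, reference base and alternative base, and a call is a site in the list of 1 library.

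Vomeronasal receptors are G protein-coupled receptors by which sensory neurons of the vomeronasal organ detect pheromones and other chemical signals of animals. The Vmn1r genes encode the V1R family, with a short outer end, found on neurons that use the G protein subunit of Gnai2. The Vmn2r genes encode the V2R family, with a large outer domain, on neurons that use that of Gnao1, many of which also express H2-M10 molecules. Both families lie in dense clusters of related genes and pseudogenes.

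DNA of both sets came from the strain that the labels write as C57BL6X129S6F1. The ESCs were kept in 5 media, each with mouse leukaemia inhibitory factor (LIF, 1000 IU), and each medium had 2 libraries numbered 3 and 5. SL was KO-DMEM with 15% serum. The others were in N2B27, and all had Chir99021 at 3 µM, which inhibits the kinase GSK3. To this, 2iL added PD0325901, a blocker of MEK, at 1 µM, and A2iL added CGP77675, a blocker of Src kinases, at 1.5 µM. LCDM added Dim and Mih at 2 µM each, which the labels do not spell out. Feeder cells were present in these 4, while 2iL-F was the 2iL medium without feeders. The 8 tumour libraries are named by an ESC condition and P9 or P14: 1 of 2iL-P9, 3 of A2iL-P9, 1 of A2iL-P14, 2 of LCDM-P9 and 1 of 2iL-F-P9. The tumours came from mice made from ESCs by tetraploid complementation. The labels name neither the tumour type nor the number of mice, ESC lines or clones, nor what 3, 5, P9 and P14 stand for. ESC calls were made against 1 library of mouse embryonic fibroblasts (MEFs) and tumour calls against wild-type blood. The blood control has a different header name in each tumour list but 1 set of values at each vomeronasal site, and which of the 2 wild-type blood samples it was is not settled. The header names of the 2iL-P9 and 2iL-F-P9 tumours begin with letters that the labels do not explain, so that an exchange of these libraries is not settled. P-values below measure only the spread between these libraries, which share sites and a control.

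The lists differ in ways that bear on every count. In the ESC lists no 2 calls of a library lay within 10 kb of each other (0 of 17915 neighbouring pairs, smallest distance 10017 bp), and no call had a dbSNP identifier. In the tumour lists 46562 of 73237 neighbouring pairs (63.6%) lay within 10 kb, and 95.3 to 97.9% of the gene-assigned calls outside the vomeronasal genes had a dbSNP identifier. The ESC lists held 1762 to 1858 calls per library. Tumour lists held 9752 to 10325 calls in 7 libraries and 3634 in LCDM-P9 replicate 2, which stands apart throughout. Counts of the 2 sets are therefore given side by side and not compared.

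RefSeq (assembly GRCm38.p6, the coordinates of mm10) lists 645 vomeronasal receptor genes and pseudogenes, 373 of the V1R and 272 of the V2R family, of which 355 are protein-coding. They formed 59 clusters when genes less than 1 Mb apart were joined. ESC sites fell in 13 clusters and tumour sites in 13. Of the 645 genes 10.9% had an ESC site and 6.05% a tumour site. Among the 355 protein-coding ones 70 (19.7%) had an ESC site and 38 (10.7%) a tumour site, against 7.2% and 15.6% of all 21896 protein-coding genes in RefSeq. RefSeq listed 94 of the 95 symbols in the lists, and 189 of 190 sites lay inside the RefSeq gene of their name. Chromosome 7 held 81 of the 117 ESC sites and 43 of the 73 tumour sites. It also holds many of the genes themselves. Its largest clusters have 94, 99 and 41 of the 645 genes, and 52, 86 and 15 of the 355 protein-coding ones.

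Sites of both sets fell in 10 clusters, while 3 clusters had only ESC sites and 3 only tumour sites, as the plot of sites by gene cluster shows. On chromosome 7, a cluster of 94 genes between 7153726 and 13244458, with 47 genes of each family, held 45 ESC sites in 21 genes, all in segmental duplications, and 1 tumour site. The V1R cluster of 99 genes between 20101158 and 24055691 held 30 ESC sites and 20 tumour sites. Farther along, the V2R cluster of 41 genes between 84810427 and 87037968 held 1 ESC site and 20 tumour sites, 5 of these in segmental duplications. The V1R cluster of 44 genes on chromosome 6, from 56923914 to 58504695, held 6 ESC and 14 tumour sites. On chromosome 17, V2R genes from 22547941 to 23479597 held 9 ESC and 2 tumour sites, and the V2R cluster on chromosome 5 from 108797193 held 9 and 1. The V1R cluster of 75 genes on chromosome 13 had 1 ESC site, Vmn1r221 K118R, and no tumour site.

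**Figure D1:**
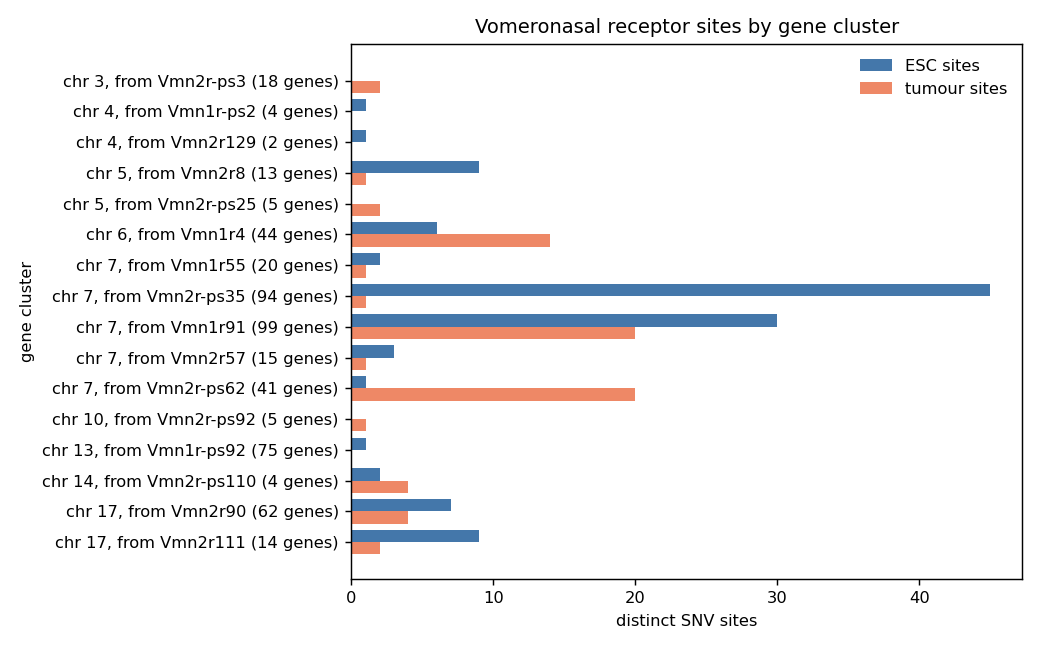
Distinct SNV sites (x axis) in each cluster of vomeronasal receptor genes that held a site (y axis, with the chromosome, first gene and number of RefSeq genes), in ESCs (blue) and tumours (orange). The cluster of 94 genes on chromosome 7 held 45 ESC sites and 1 tumour site, and the V2R cluster of 41 genes on chromosome 7 held 1 ESC site and 20 tumour sites.

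Some of the genes are alike in their own letters. RefSeq promoter windows of 323 vomeronasal symbols were given, and in 283 the last 50 bases began with a start codon, so that they show the first 50 coding bases. The genes below carry ESC sites and lie in the V1R cluster of 99 genes on chromosome 7. They are printed 5′ to 3′ on the coding strand, and capitals mark bases that differ from Vmn1r101 at chr7:20442544-20442593 (minus strand).
Vmn1r101: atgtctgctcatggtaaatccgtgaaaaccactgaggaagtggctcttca
Vmn1r119: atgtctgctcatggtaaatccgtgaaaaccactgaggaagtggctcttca
Vmn1r122: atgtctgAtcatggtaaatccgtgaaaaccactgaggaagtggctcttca
Vmn1r113: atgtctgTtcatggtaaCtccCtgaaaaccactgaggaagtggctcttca
Vmn1r129: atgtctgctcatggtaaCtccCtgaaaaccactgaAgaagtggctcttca
Vmn1r121: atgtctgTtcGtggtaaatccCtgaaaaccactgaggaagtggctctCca
Vmn1r174: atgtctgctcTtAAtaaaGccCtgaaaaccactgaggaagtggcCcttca
Vmn1r175: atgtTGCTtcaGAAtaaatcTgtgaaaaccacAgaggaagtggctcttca
Vmn1r119 (chr7:21012406-21012455, minus strand) was identical to Vmn1r101 over these bases, Vmn1r122 (chr7:21134079-21134128, minus strand) differed at 1 base and Vmn1r113 (chr7:20787285-20787334, plus strand) and Vmn1r129 (chr7:21361242-21361291, minus strand) at 3. Vmn1r121 (chr7:21098464-21098513, minus strand) differed at 4, Vmn1r174 (chr7:23753911-23753960, plus strand) at 6 and Vmn1r175 (chr7:23809151-23809200, minus strand) at 9.

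V2R genes with ESC sites in the neighbouring cluster of 94 genes are printed for the same purpose. Here capitals mark bases that differ from Vmn2r32 at chr7:7479924-7479973 (minus strand).
Vmn2r32: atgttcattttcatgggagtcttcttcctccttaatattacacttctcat
Vmn2r45: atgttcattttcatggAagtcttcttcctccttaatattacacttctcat
Vmn2r40: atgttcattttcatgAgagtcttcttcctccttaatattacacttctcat
Vmn2r33: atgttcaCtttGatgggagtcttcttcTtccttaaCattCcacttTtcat
Vmn2r29: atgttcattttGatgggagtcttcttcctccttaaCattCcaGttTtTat
Vmn2r38: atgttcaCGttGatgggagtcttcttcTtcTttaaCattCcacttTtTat
Vmn2r45 (chr7:8488910-8488959, minus strand) and Vmn2r40 (chr7:8931353-8931402, minus strand) differed at 1 base each. Vmn2r33 (chr7:7566737-7566786, minus strand) and Vmn2r29 (chr7:7278240-7278289, minus strand) differed at 6 and Vmn2r38 (chr7:9097716-9097765, minus strand) at 9.

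Over all V1R genes with such a window, 83 of 181 (45.9%) had another vomeronasal gene with identical first 50 coding bases, and 113 (62.4%) had one within 2 mismatches. Of the 25 V1R genes with an ESC site and a window, 18 (72.0%) had an identical partner and 22 (88.0%) one within 2 mismatches. Of the 12 such V1R genes with a tumour site, 5 (41.7%) had an identical partner. In the V2R family 26 of 102 genes (25.5%) had an identical partner, as did 12 of 35 with an ESC site (34.3%) and 1 of 17 with a tumour site (5.88%). These shares describe the genes. They were not tested, since the genes of a cluster are not independent.

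The 10 ESC libraries held similar numbers of vomeronasal calls. There were 54 and 51 calls in the SL libraries numbered 3 and 5, 50 and 57 in 2iL, 60 and 51 in A2iL, 53 and 53 in LCDM, and 53 and 47 in 2iL-F. The ranges of SL, 2iL, A2iL and 2iL-F overlapped, and both LCDM libraries lay within the range of the others. The mean was highest in A2iL at 55.5 ± 6.36 (SD, n = 2) and lowest in 2iL-F at 50 ± 4.24, with 52.5 ± 2.12 for SL, 53.5 ± 4.95 for 2iL and 53, from equal values, for LCDM. No difference by medium passed the threshold of 0.05 (exact permutation test of F, 945 partitions, one-sided p = 0.810, n = 2 each). V1R calls numbered 16 to 21 and V2R calls 30 to 40 per library. Vomeronasal calls were 4.51 to 5.74% of the gene-assigned calls of an ESC library.

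**Figure D2:**
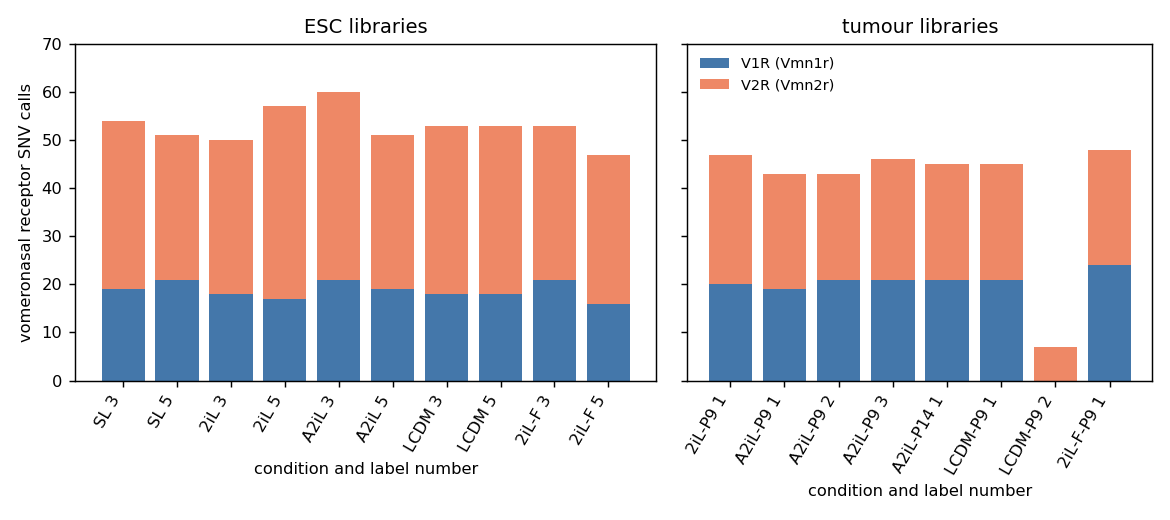
Number of vomeronasal receptor SNV calls (y axis) in each ESC library (left) and tumour library (right), split into V1R (blue) and V2R (orange) genes. The ESC libraries held 47 to 60 calls, 7 tumours held 43 to 48, and LCDM-P9 replicate 2 held 7, none of them in a V1R gene.

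Sites recurred across ESC media. Of the 117 ESC sites 14 (12%) were called in all 10 libraries, against 17.8% of all gene-assigned ESC sites, and 27 (23.1%) in 1 library, against 34.3%. No vomeronasal site was called in both libraries of 1 condition and in no other, against 2.41% of all gene-assigned sites (58 of 2402). Of the 19 sites called in exactly 2 libraries, all 19 joined different conditions, which restates that absence and is not a second result. No share over all gene-assigned sites in 2 libraries stands beside it, and most pairs of libraries join different conditions. The 10 kb spacing bears on calls missing from a library. In 381 of the 641 cases (59.4%) in which a vomeronasal site had no call in a library, that library carried another call within 10 kb. This held for 362 of 545 absences (66.4%) inside segmental duplications and for 19 of 96 (19.8%) outside them. Of the sites called in 1 library, 3 of the 27 had no such neighbour in any other library. The same counts over all gene-assigned ESC sites are not given here, so these cannot be called particular to the vomeronasal genes.

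A gene was counted as called in a library when any of its sites was, so a gene recurs at least as widely as its sites. The 117 sites lay in 69 gene entries, 28 of the V1R and 41 of the V2R family. Of these genes 32 (46.4%) were called in all 10 libraries, against 34.2% of all 1773 genes with an ESC site. All gene-assigned ESC sites numbered 2402, and the 2 shares were not matched for the number of sites per gene. A single site in all 10 libraries accounted for 14 of the 32. The other 18 were called in every library only through different sites. The V1R gene Vmn1r174, named with the next 4 genes after its values were seen, had 4 missense sites within its coding exon on chromosome 7. I109V (position 23754235) was called at fractions of 0.322 in LCDM library 3 and 0.298 in 2iL-F library 3. V148F (23754352) was called at 0.286 and 0.246 in 2iL libraries 3 and 5 and at 0.262 in LCDM library 5. L228M (23754592) was called at 0.274 in A2iL library 3 and 0.312 in 2iL-F library 5. P283A (23754757) was called at 0.283 and 0.255 in SL libraries 3 and 5 and at 0.274 in A2iL library 5. Each library thus had 1 of the 4 sites, at like fractions of 0.246 to 0.322, and no read of these alternatives in the control. Vmn1r121 A280S was called in 5 libraries and I112M in the other 5. Vmn1r27 V126I was called in 8 and C53F in the other 2. Vmn1r119 and Vmn1r9, also V1R genes, were split 8 and 2, and 7 and 3. Since these genes are shorter than 10 kb, the list could hold at most 1 of their sites per library.

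**Figure D3:**
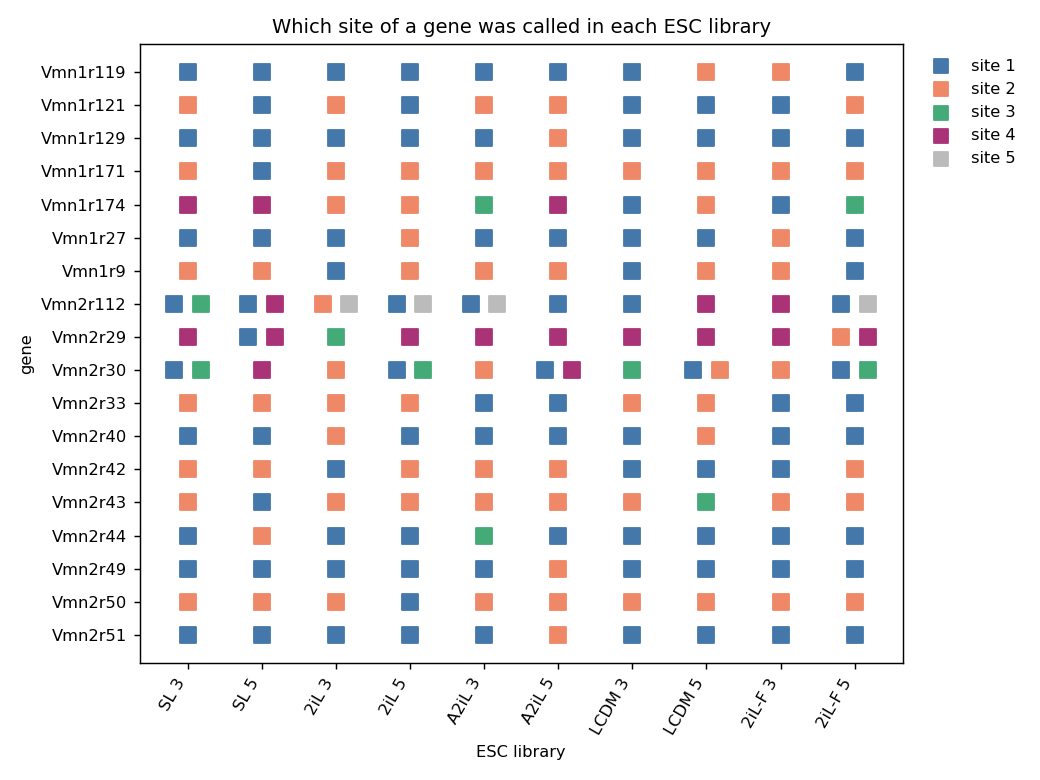
The 18 genes (y axis) called in all 10 ESC libraries (x axis) with no single site called in all 10. Colours number a gene's sites along the chromosome, and each square is a call. Vmn1r174 shows 4 sites, 1 per library, and Vmn2r112 5 sites, with up to 2 in a library.

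Of the 117 ESC sites 85 were exonic, 31 intronic and 1 in a noncoding RNA, Vmn2r-ps159. The exonic sites were 52 missense, 31 synonymous and 2 stop-gain. Protein-changing sites made up 54 of the 85 (63.5%), against 54.6% of all exonic ESC sites (401 of 734, vomeronasal sites included). All 40 V1R sites were exonic, and of the 77 V2R sites 45 were exonic and 31 intronic. Exon 6 of the V2R genes, which encodes the membrane-spanning part, held 25 of the 45 exonic V2R sites, 16 of them protein-changing. Exon 3, which encodes part of the outer domain, held 9, of which 5 changed the protein.

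The protein-changing ESC sites in all 10 libraries lay in 7 receptors. The V2R gene Vmn2r45 had I256T (chromosome 7, position 8483521) at 0.340 and 0.307 in the SL libraries, 0.284 and 0.323 in 2iL, 0.341 and 0.241 in A2iL, 0.339 and 0.356 in LCDM and 0.373 and 0.347 in 2iL-F. Both 2iL-F libraries and LCDM library 5 were highest and A2iL library 5 lowest, and the media overlapped except that both 2iL-F values exceeded those of SL, 2iL and A2iL and both LCDM values exceeded those of 2iL. Its depth was 150 to 241 reads in the libraries and 355 in the control. Vmn2r32 D22G (chromosome 7, position 7479909), near the start of a V2R, was read at 0.237 and 0.231 in SL, 0.225 and 0.243 in 2iL, 0.259 and 0.227 in A2iL, 0.249 and 0.228 in LCDM, and 0.231 and 0.239 in 2iL-F. These values lay close together and overlapped between all media. Its depth was 710 to 972 reads in the libraries and 383 in the control, the reverse order of Vmn2r45.

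The V2R gene Vmn2r38 had A649V (chromosome 7, position 9075436) at fractions of 0.124 to 0.198, with a depth of 219 to 348 reads against 596 in the control. Vmn1r221 K118R (chromosome 13, position 23217725), in a V1R, was read at 0.127 to 0.174. Vmn1r7 V52M (chromosome 6, position 57025120), in a V1R outside any annotated segmental duplication, was read at 0.110 to 0.185. Vmn1r176 Q218P (chromosome 7, position 23835074) was read at 0.058 to 0.141 and Vmn2r14 V704I (chromosome 5, position 109215939) at 0.036 to 0.083. At Vmn2r14 the control held 1 alternative read beside 497 reference reads, and at the other 6 sites it held none. Called in 9 libraries were the V1R changes Vmn1r129 I207V (0.159 to 0.252), Vmn1r171 R197H (0.145 to 0.222) and Vmn1r77 A100V (0.088 to 0.333). Vmn1r77 had only 18 to 44 reads. Vmn1r129 and Vmn1r171 each had another missense site in the library that lacked the named call, S172L in A2iL library 5 and R140L in SL library 5.

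Both ESC stop-gain sites were in V2R genes and were named after their values were seen. Vmn2r43 S727X (chromosome 7, position 8244983) was called in 8 libraries at 0.128 to 0.166, with 68 to 121 alternative reads. The other 2 libraries had a missense call in the same exon, W776R in SL library 5 and G726S in LCDM library 5. Vmn2r92 W468X (chromosome 17, position 18168829) was called in 2iL library 5 at 0.048 (11 of 228 reads) and in LCDM library 5 at 0.034 (7 of 208).

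Exonic ESC sites with a median fraction above 0.4 numbered 4, and all 4 were synonymous, with medians from 0.431 to 0.532. The highest, named for this value, was L20L of the joint entry Vmn1r101 and Vmn1r149 (chromosome 7, position 20442534), at 0.484 to 0.580 in all 10 libraries. The others lay in Vmn2r33, Vmn2r44 and Vmn2r50. No protein-changing ESC site had a median fraction above 0.340. Synonymous sites did not run higher as a group. The median site fraction was 0.111 over the 31 synonymous and 0.1365 over the 54 protein-changing sites. The share of all exonic ESC sites above 0.4 is not given here. A median below 0.1 was found at 34 of the 85 exonic sites. Median depth at exonic sites ran from 34 to 1163 reads. Of the 31 intronic sites 13 had a median depth under 20 reads, and the highest ESC fraction of 0.750 came from such sites.

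Some receptors, named after their values were seen, had a site at the same residue as another gene of their family. D46A occurred in Vmn1r3 (7 libraries, median fraction 0.044) and in Vmn1r79 (8 libraries, 0.0325), on chromosomes 4 and 7. P50P occurred in Vmn1r123 and Vmn1r160, in 1 library each. P685T in Vmn2r32 and P685S in Vmn2r33 shared a residue number in exon 6. V148F occurred in Vmn1r174 in the ESC set and in Vmn1r172 in the tumour set. Residue numbers come from the deposited annotation, and the proteins were not aligned. With this many exonic sites, some residue numbers can match by chance. The number to expect was not worked out, so these matches are not evidence of recurrence between genes.

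Compared with other genes of the same library, vomeronasal ESC calls had lower alternative-allele fractions. The library medians were 0.172 and 0.167 in SL, 0.163 and 0.149 in 2iL, 0.167 and 0.147 in A2iL, 0.168 and 0.132 in LCDM, and 0.171 in both 2iL-F libraries. Medians of other gene-assigned calls were 0.250 to 0.286, so that the groups did not overlap. The mean difference was -0.105, with vomeronasal calls lower in 10 of 10 libraries (exact sign-flip permutation test, two-sided p = 0.00195, the smallest that 10 libraries allow). Segmental duplications moved with this result. Inside them the medians were 0.155 to 0.200 for vomeronasal and 0.167 to 0.205 for other genes, a mean difference of -0.00605 (6 of 10 libraries lower, exact permutation p = 0.244). Outside them, on only 6 to 10 vomeronasal calls per library, the medians were 0.0535 to 0.111 against 0.278 to 0.322, a difference of -0.221 in 10 of 10 libraries (exact permutation p = 0.00195). The main comparison was not matched for region either. Exonic sites were 85 of the 117 vomeronasal but 734 of all 2402 gene-assigned ESC sites. The median site fraction was 0.116 at exonic and 0.3395 at intronic vomeronasal sites. Across 8 alternative settings the difference stayed negative, from -0.221 to -0.00605. By medium, no difference in the vomeronasal fraction passed the threshold (exact permutation test of F, one-sided p = 0.422).

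Segmental duplications, which are long stretches present more than 1 time in the genome, held 100 of the 117 ESC sites. Their annotated identity to the other copy had a median of 0.979, and in 94 of the 100 that copy was on the same chromosome. The share of vomeronasal calls in them was 83.3 to 88.2% per library against 25.2 to 27.7% for other genes. The mean difference was 59.7 percentage points, with 10 of 10 libraries higher (exact permutation, two-sided p = 0.00195). The annotation is fixed for a site and the libraries share sites, so this p-value adds little to the shares by site, 85.5% against 27.0%. The share of all vomeronasal gene sequence lying in such duplications, called or not, is not given here. Where copies are near-identical, the copy that a read came from is uncertain, and no measure of read mapping was examined. Outside segmental duplications lay 17 ESC sites and 34 tumour sites.

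Depth was higher at vomeronasal ESC calls, in the control as well as in the cells. The median depth was 208 to 315 reads per library against 49 to 67 at other genes, a ratio of 3.80 to 5.00. In the MEF control at the same sites it was 233 to 291 against 53 to 58, a ratio of 4.24 to 5.32. These ratios were not matched for region. Exonic sites were 85 of the 117 vomeronasal sites, but only 734 of all 2402 gene-assigned ESC sites. Among vomeronasal sites the median depth was 280 reads at exonic and 27.5 at intronic ones, so the ratios cannot be read as a property of the receptor genes. For depth relative to the control, the mean difference from other genes in the median log2 ratio was 0.016, which did not pass (7 of 10 libraries higher, exact permutation p = 0.582). This value changed sign with the setting. It was -0.24 in 10 of 10 libraries when reads per allele replaced the depth field (exact permutation p = 0.00195), and 0.14 outside segmental duplications (exact permutation p = 0.00586). The control held an alternative read at 9.80 to 15.1% of vomeronasal calls and at 5.23 to 6.66% of others, and never more than 1 at a vomeronasal site.

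**Figure D4:**
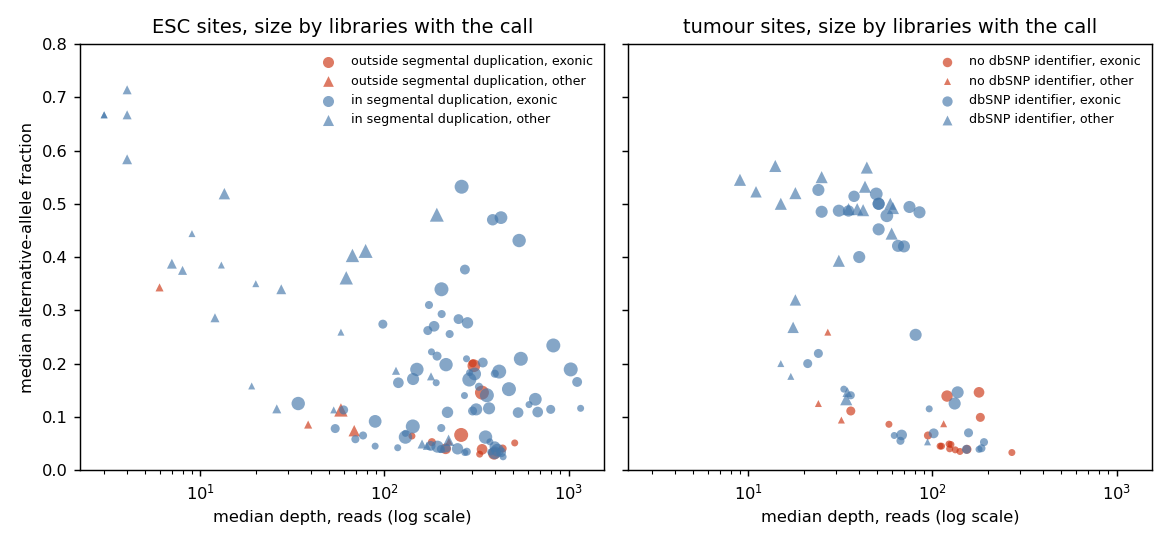
Median alternative-allele fraction (y axis) against median depth in reads (x axis, log scale) for each of the 117 ESC sites (left) and 73 tumour sites (right). Circles are exonic and triangles other sites, colours mark segmental duplications (left) or dbSNP identifiers (right), and size grows with the number of libraries. Most ESC sites lie below 0.3, whereas 27 of the 31 tumour sites called in 7 or 8 tumours lie above 0.3.

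In the tumours, vomeronasal calls numbered 47 in 2iL-P9, 43, 43 and 46 in A2iL-P9, 45 in A2iL-P14, 45 and 7 in LCDM-P9, and 48 in 2iL-F-P9. Apart from LCDM-P9 replicate 2, all 7 lay between 43 and 48. The 3 A2iL-P9 tumours had a mean of 44 ± 1.73 (SD) and the other 4 P9 tumours 36.8. The difference of 7.25 did not pass (exact permutation over 35 splits, two-sided p = 0.971) and was -2.67 without LCDM-P9 replicate 2 (exact permutation p = 0.200). Vomeronasal calls were 0.454 to 0.512% of gene-assigned calls in 7 tumours and 0.198% in LCDM-P9 replicate 2.

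The 73 tumour sites lay in 39 genes, 34 sites in 17 V1R genes and 39 in 22 V2R genes. By region 47 were exonic, 23 intronic, 2 in a 5′ untranslated region and 1 in a noncoding RNA. The exonic sites were 29 missense, 17 synonymous and 1 stop-loss. Protein-changing sites were 30 of 47 (63.8%), against 31.5% of all exonic tumour sites (1134 of 3600). Of the 73 sites 31 were called in 7 or 8 tumours, against 51.7% of all gene-assigned tumour sites, and 20 (27.4%) in 1 tumour, against 26.4%.

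Tumour sites fell into shared sites near a fraction of 0.5 and sparsely called sites of low fraction. All 31 sites called in 7 or 8 tumours had a dbSNP identifier, and 27 of them had a median fraction above 0.3. Of the 42 sites called in 1 to 6 tumours, 4 had a median above 0.3. The 19 sites without a dbSNP identifier were all called in 6 tumours or fewer, 15 of them lay in segmental duplications, and their fractions did not exceed 0.259.

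The receptors with most distinct protein-changing tumour sites were the V1R genes Vmn1r168 and Vmn1r171, with 3 each. In Vmn1r168, L82S (chromosome 7, position 23540964) was called in 3 tumours at 0.038 to 0.046 and P297H in 2 at 0.133 to 0.148, while F221I was called in 1 at 0.035. L82L lies at the base next to L82S and was called in 3 tumours at 0.038 to 0.048, and 2 tumours, A2iL-P9 tumour 2 and 2iL-F-P9, had both. In Vmn1r171, R140L (chromosome 7, position 23632770) was called in A2iL-P9 tumours 1 and 3 at 0.144 and 0.146, in A2iL-P14 at 0.171, in LCDM-P9 tumour 1 at 0.148 and in 2iL-F-P9 at 0.129. I30V was called in 3 tumours at 0.064 to 0.104 and I54N in 2 at 0.037 to 0.045. R140L, I30V, L82S and Vmn2r96 T356K (2 tumours, 0.056 to 0.074) were the protein-changing sites without a dbSNP identifier found in most tumours.

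Among the protein-changing sites of the other named receptors, fractions ranged widely. Vmn2r89, a V2R, had the only 2 sites called in all 8 tumours. K306E (chromosome 14, position 51456110) was read at 0.471 in 2iL-P9, 0.607, 0.488 and 0.396 in A2iL-P9, 0.508 in A2iL-P14, 0.548 and 0.655 in LCDM-P9 and 0.529 in 2iL-F-P9. H323R (51456162) was read at 0.407 to 0.618. LCDM-P9 replicate 2 was highest at K306E and within the range of the others at H323R. In Vmn1r10, I307F was called in 7 tumours at 0.441 to 0.727 and A124V in 4 at 0.057 to 0.075. In Vmn1r15, T194S was read at 0.371 to 0.529 and P18A at 0.170 to 0.391, both in 7 tumours. In Vmn1r172, V148F was read at 0.114 to 0.171 in 7 tumours. The stop-loss Vmn2r79 X852L (chromosome 7, position 87037967), the only site of its kind, was called in 6 tumours at 0.417 to 0.581. Vmn1r124 had V132A in 5 tumours at 0.054 to 0.137 and P163S in 1, and Vmn2r96 also had I139F in 2 tumours at 0.046 to 0.064.

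**Figure D5:**
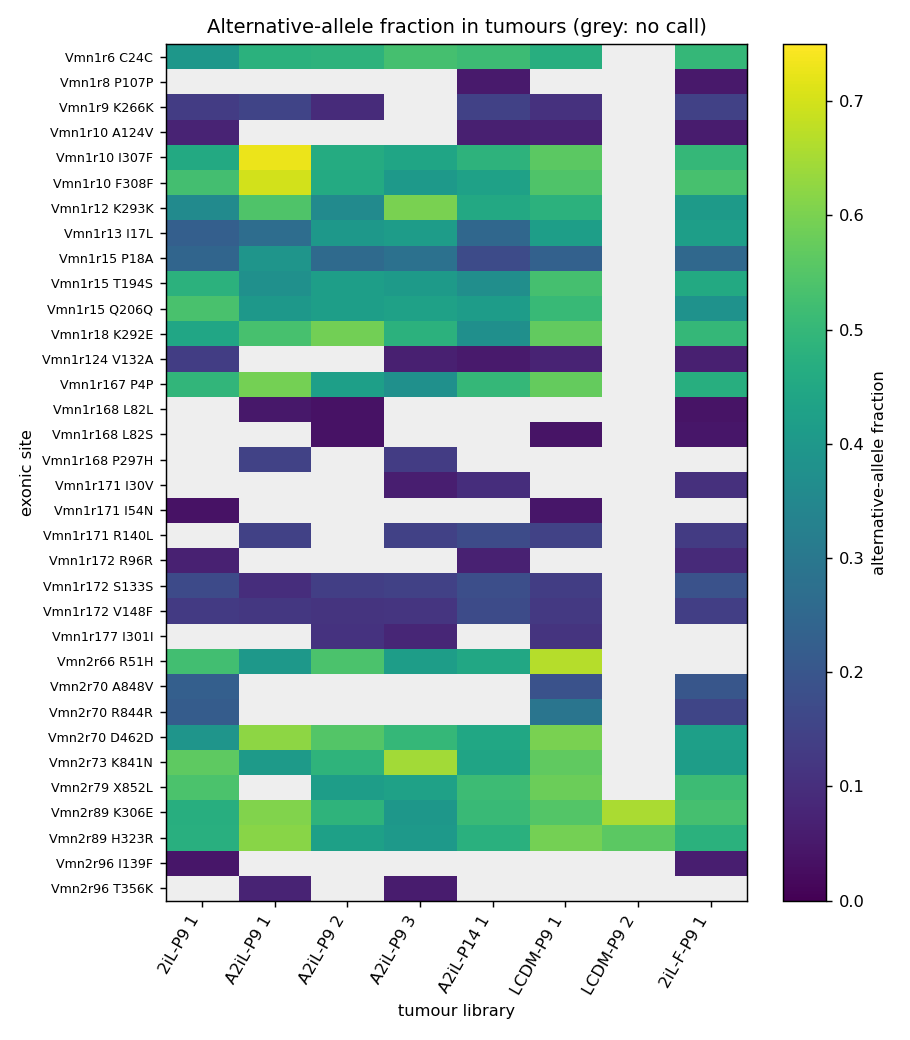
Alternative-allele fraction (colour) of the exonic vomeronasal sites (y axis, gene and change) called in at least 2 tumours, in each tumour library (x axis), with grey for no call. Rows such as Vmn2r89 K306E and H323R are filled in all 8 tumours near 0.5, while those of Vmn1r168 and Vmn1r171 are partly filled and at low fractions.

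The V2R gene Vmn2r70, named for its number of sites, had most sites of any receptor: 11, of which 8 were intronic and 3 exonic. All 11 had a dbSNP identifier and none lay in a segmental duplication. They were called in 7 tumours at 7 sites and in fewer at 4, with median fractions of 0.200 to 0.568. The 7 calls of LCDM-P9 replicate 2 all lay in V2R genes. The 3 in Vmn2r89 were shared with other tumours, and 4 were in no other tumour, among them, named after their values were seen, Vmn2r80 R432G (0.040) and Vmn2r91 I230S (0.048).

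Tumour sites within the first 50 coding bases could be placed on the RefSeq sequence in 3 V1R genes, named for that position. Capitals mark the reference base that was changed.
Vmn1r13: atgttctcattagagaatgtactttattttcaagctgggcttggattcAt
Vmn1r167: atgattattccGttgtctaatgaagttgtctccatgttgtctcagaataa
Vmn1r174: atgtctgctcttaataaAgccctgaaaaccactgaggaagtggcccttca
Vmn1r13 I17L (chr6:57209858-57209907, plus strand) was called in 7 tumours at 0.226 to 0.421. Vmn1r167 P4P (chr7:23505540-23505589, minus strand) was called in 7 tumours at 0.377 to 0.593. Vmn1r174 K6N (chr7:23753911-23753960, plus strand), in a gene whose first 50 coding bases were identical to those of Vmn1r173, was called in 1 tumour at 0.039.

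Against other genes of the same tumour, the median vomeronasal fraction did not differ past the threshold, whereas the mean did. Its medians were 0.373 in 2iL-P9, 0.409, 0.462 and 0.407 in A2iL-P9, 0.415 in A2iL-P14, 0.500 and 0.094 in LCDM-P9, and 0.399 in 2iL-F-P9. Other genes had 0.432 to 0.438 in 7 tumours and 0.817 in LCDM-P9 replicate 2. The mean difference was -0.100 (6 of 8 lower, exact sign-flip permutation, two-sided p = 0.273, smallest possible 0.00781), and -0.0111 without LCDM-P9 replicate 2. With means in place of medians the difference was -0.0962, lower in 8 of 8 (exact permutation p = 0.00781). Inside segmental duplications the sign was the opposite, at 0.125 in 8 of 8 tumours (exact permutation p = 0.00781).

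Segmental duplications held 39 of the 73 tumour sites. Their share of vomeronasal calls was 41.9 to 47.9% in 7 tumours and 71.4% in LCDM-P9 replicate 2, against 2.43 to 4.09% for other genes. The mean difference was 45.8 points, higher in 8 of 8 (exact permutation p = 0.00781). As in the ESCs, this p-value adds little to the shares by site, 53.4% against 3.46%. The blood control held an alternative read at 55.8 to 67.4% of vomeronasal calls in 7 tumours and at 28.6% in LCDM-P9 replicate 2, against 37.2 to 38.0% and 17.0% for others. The mean difference was 22.0 points in 8 of 8 (exact permutation p = 0.00781). Inside segmental duplications it was 0.271 points (exact permutation p = 0.906). Vomeronasal depth had a median of 31 to 60 reads in 7 tumours and 91 in LCDM-P9 replicate 2, and of 63 to 85.5 and 95 at the same sites in the control. At other genes the control median was lower, at 37 to 38 and 44 reads. The comparison of alternative reads in the control was not matched for this depth. The median log2 depth ratio to the control was -0.36 in 2iL-P9, -0.97, -0.60 and -0.35 in A2iL-P9, -0.32 in A2iL-P14, -0.74 and -0.05 in LCDM-P9 and -0.87 in 2iL-F-P9. It was lower than that of other genes by 0.36 on average, in 7 of 8 tumours with equal values in LCDM-P9 replicate 2 (exact permutation p = 0.0156).

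All sites of the series numbered 4358 in ESCs and 15030 in tumours, 19181 of them distinct, so sites outside these genes were shared too. An overlap is thus not particular to these receptors. Of the 6 vomeronasal sites present in both sets, 3 changed the protein. Vmn1r9 K266K (chromosome 6, position 57071739) had a median fraction of 0.114 in 7 ESC libraries and 0.139 in 6 tumours, and Vmn1r171 R140L had 0.164 in 1 ESC library and 0.146 in 5 tumours. Vmn1r177 I301I had 0.113 in 3 and 0.111 in 3. Vmn2r28 G315V had 0.0455 in 4 and 0.086 in 1, Vmn2r96 T356K 0.0395 in 2 and 0.065 in 2, and Vmn2r104 R699R 0.030 in 1 and 0.033 in 1. None had a dbSNP identifier, 5 lay in segmental duplications, and all had a median under 0.17 in both sets. By gene symbol 15 were shared, 21.1% of the 71 ESC symbols and 38.5% of the 39 tumour symbols. The same shares over all genes are not given here.

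Other genes of the vomeronasal system are set beside the same shares of all protein-coding genes, 7.2% with an ESC site and 15.6% with a tumour site. Of 17 signalling and wiring genes, such as the channel gene Trpc2 and Gnao1, the chloride channel gene Ano2 (5.88% of the list) had 2 intronic ESC sites, and Ano2 and Ano1 (11.8%) together had 8 tumour sites, 0 of them protein-changing. The 4 formyl peptide receptor genes of the organ had 0 sites in either set. Of 9 H2-M genes, H2-M10.1 and H2-M10.2 (22.2%) had 3 synonymous ESC sites, H2-M10.2 L228L being called in all 10 libraries at 0.141 to 0.191. In the tumours H2-M10.3 and H2-M10.4 (22.2%) had 3 sites, 2 of them missense, T172K and R19L of H2-M10.4, at median fractions of 0.476 and 0.481 in 7 tumours. Of 37 genes for ligands, the major urinary proteins (Mup) and exocrine gland peptides (Esp), 11 (29.7%) had 17 ESC sites, all in Mup genes and all in segmental duplications. Their 3 missense sites were Mup18 K113M (9 libraries, 0.344 to 0.409), Mup19 T113I (2 libraries) and Mup12 F74V (1 library). No ligand gene had a tumour site.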

How the data were processed

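Exome capture libraries of genomic DNA were read from the deposited SNV lists. For the tumours, the series' own design text speaks of ATAC-seq and its title of exome sequencing. BWA, SAMtools, Picard and the mm10 build are named in the submitters' processing notes. Which program called SNVs was not given in the sources used here. The authors' deposited lists give, by their headers, reads per allele, base quality, depth and alternative-allele fraction per call for a library and its control, with gene, region, consequence, segmental duplication, repeat and dbSNP build 142 annotation. Each library was summarised by the median over its calls. Media were compared by an exact permutation F test, and vomeronasal with other gene-assigned calls by an exact sign-flip permutation test over libraries (threshold 0.05), in Python 3.11.15 with numpy 2.4.6 and pandas 2.3.3, after the tests were checked on simulated data. Labels do not say that libraries came from separate cultures or mice. The genes and lists were chosen with earlier results of these data known. Named were the 10 genes with the most widely called protein-changing ESC site, the 10 with most protein-changing tumour sites, tumour stop-loss sites, the protein-changing tumour sites without dbSNP identifier in most tumours and sites in both sets. Among the last of the 10 tumour genes, ties at 1 site were settled by name (Vmn1r13, Vmn1r172 and Vmn1r174). Of 21 samples, 3 controls had no list. Sequences are from RefSeq GRCm38.p6.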

Additional observations from a re-analysis of the deposited data

Results flagged for a closer look

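The tumour LCDM-P9 replicate 2 stood apart from the other 7 tumours in 4 measures, each by a gap to the nearest tumour that was large against the whole range. It had 7 vomeronasal calls, a median alternative-allele fraction of 0.094, 71.4% of its calls in segmental duplications and 28.6% with an alternative read in the control. About 1 in 20 groups is expected to stand out in this way by chance, and the last 3 values rest on the same 7 calls. The whole list of this tumour differed too, so the gap is not particular to these receptors. It held 3634 calls against 9752 to 10325 in the others. The median fraction at its other genes was 0.817 against 0.432 to 0.438.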

How the results depend on the processing

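Among ESCs, the difference between vomeronasal and other genes in depth relative to the control, 0.016 (log2), depended most on the setting. It was -0.0299 with at least 20 reads, -0.0229 with at least 5 alternative reads, -0.0316 with no alternative read in the control, -0.0744 inside segmental duplications, -0.156 for exonic calls (exact permutation p = 0.00391), -0.0350 with means and -0.24 with reads per allele as depth. It was 0.14 outside segmental duplications. Settings inside segmental duplications and with reads per allele were chosen after seeing the data. Inside segmental duplications the ESC fraction difference was -0.00605, the tumour fraction difference 0.125 and the tumour difference in control reads 0.271 points. With means the tumour fraction difference was -0.0962 in 8 of 8 (exact permutation p = 0.00781). The cause of these changes was not tested. With 1 library left out, p ran from 0.381 to 0.975 for ESC calls by condition and from 0.101 to 0.640 for the ESC fraction by condition. The ESC differences ran from -0.108 to -0.101 (fraction), 0.00544 to 0.0367 (log2 depth ratio) and 59.4 to 60.1 points (segmental duplications). In tumours the A2iL-P9 difference ran from -2.67 to 11, the fraction from -0.124 to -0.0111, the log2 depth ratio from -0.41 to -0.33, segmental duplications from 42.8 to 46.8 points and control reads from 20.9 to 23.5 points. With the label number as a replicate block, p was 0.767 for ESC calls and 0.175 for the fraction (exact permutation). The labels do not say what numbers 3 and 5 share, and the samples were not treated as paired: 1 of 10 correlations between conditions exceeded 0.1 (-0.209 to 0.101). Calls rest on as few as 2 alternative reads.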
